A study of Mus musculus with 21 samples.

Results

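Decorin (Dcn) and its relatives among the small leucine-rich proteoglycans (SLRPs) were followed in sorted epidermal keratinocytes of mice with an inducible p16 transgene. The other SLRPs of the group were biglycan (Bgn), lumican (Lum), fibromodulin (Fmod), osteoglycin (Ogn), asporin (Aspn), Prelp and osteomodulin (Omd), and Sparc, a secreted collagen-binding protein that is not an SLRP, was included beside them. These 9 genes of the 22050 entries in the expression table were chosen by name, and Dcn was selected on its difference between the same p16 and control samples that are described here. The p16 and control values of the 9 genes are therefore given as a description, without p-values.

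SLRPs are secreted proteins built of leucine-rich repeats, and many of them carry glycosaminoglycan chains such as dermatan sulfate or keratan sulfate. They bind collagen fibrils and help to set the thickness and spacing of the fibrils, and decorin and biglycan also bind growth factors, among them TGF-β. In skin, decorin is known mainly as a product of dermal fibroblasts.

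Expression was measured by mRNA-seq, mostly of 3′ transcript ends, in GFP+ cells from dorsal skin, with 4 control and 4 p16 samples. Control mice were K5-rtTA/tet-GFP and p16 mice were K5-rtTA/tet-GFP/tet-p16, both on a mixed FVB, C57Bl and 129sv background, so that both groups carried the doxycycline-dependent activator under the keratin 5 promoter and the inducible GFP, and only the p16 mice carried the inducible human p16 gene. All mice were males and drank doxycycline from 3 weeks of age for 6 months. Each sample held about 80000 cells pooled from 3 mice, sorted after cells positive for CD140a, CD45 or CD31 (fibroblasts, immune and endothelial cells) had been gated out. The activator works in cells in which the keratin 5 promoter is active, and p16 protein appears in a subset of them. The authors obtained the 4 replicates of each group in 3 independent experiments, so some replicates of a group shared an experiment. Which sample came from which experiment is not given in the sources used here. The fits treat the samples as independent, and p-values measure only the spread between these pooled samples.

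The deposited values were read counts adjusted for depth by size factors, called normalized read counts below. Whole read counts were recovered from them and totaled between 1760953 (control replicate 4) and 3414362 (control replicate 1) in a sample. A count of 3 reads in a sample, taken as the limit of detection, corresponds to a normalized read count between 2.23 and 4.58, and this limit covers counting error only. The human CDKN2A transgene was at most 2.5 in any control and at least 7.4 in p16 replicates 2 to 4. It was at 1.6 in the library labelled p16 replicate 1, a value below the limit of detection and found among the controls. The fits were therefore also run without that library. Correlations with Dcn, orders of samples and the overlap of groups are given only with it. The GFP transgene by which the cells were sorted was lower in 4 of 4 p16 samples, at 5330 ± 809 in control and 3555 ± 341 in p16 samples (SD, n = 4 each; log2 fold change -0.58, limma adjusted p = 0.0167). It was not called without control replicate 2 (0.0506), the library labelled p16 replicate 1 (0.0518), p16 replicate 3 (0.0574) or replicate 3 of both groups (0.127). In the labels, replicate 3 of both groups has a differently worded library protocol, and fits without both were run for that reason.

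Dcn (ENSMUSG00000019929, chromosome 10 of GRCm38, 97479609 to 97518143, plus strand) encodes decorin, which binds type I collagen and carries a chondroitin or dermatan sulfate chain. Its normalized read count was 5.9, 2.6, 4.2 and 10.7 in controls 1 to 4 and 85.6, 89.8, 203.0 and 36.2 in p16 replicates 1 to 4. Every p16 sample was above every control sample, with p16 replicate 3 the highest and p16 replicate 4 the lowest of its group. The mean was 5.85 ± 3.50 in control and 104 ± 70.6 in p16 cells (SD, n = 4 each), a 17.7-fold difference of the means. On the log2(normalized read count + 1) scale, which understates the change of genes with low values, the difference was 3.82 (standard error 0.44). The control values rest on 22 reads in all and the p16 values on 495. Without the library labelled p16 replicate 1 the log2 difference was 3.82, and it was 3.33 without replicate 3 of both groups. In these bulk samples, fewer cells of a type and less RNA per cell cannot be told apart, and the same holds for more of either.

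Sparc (ENSMUSG00000018593, chromosome 11, 55394500 to 55423183, minus strand) encodes a calcium-binding matrix protein that binds collagen and takes part in its assembly. Its normalized read count was 631.3, 571.1, 590.5 and 731.8 in controls 1 to 4 and 1034.6, 845.6, 951.4 and 1917.4 in p16 replicates 1 to 4. Every p16 sample was again above every control sample, but the highest was p16 replicate 4, in which Dcn was lowest among the p16 samples. The mean was 631 ± 71.6 in control and 1187 ± 493 in p16 cells (SD, n = 4 each), with a log2 difference of 0.84 (standard error 0.20). Without p16 replicate 4 the log2 difference was 0.58, and without the library labelled p16 replicate 1 it was 0.88.

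Prelp (ENSMUSG00000041577, chromosome 1, 133910304 to 133921414, minus strand) encodes an SLRP with an arginine- and proline-rich end that binds heparan sulfate and collagen. Its normalized read count was 14.1, 10.3, 6.7 and 18.3 in controls 1 to 4 and 5.6, 6.2, 2.7 and 1.6 in p16 replicates 1 to 4. Its groups did not overlap, in the direction opposite to Dcn, although p16 replicate 2 was close to control replicate 3. Before adjustment for depth, p16 replicate 2 and control replicates 2 and 3 each had 8 reads. In p16 replicates 3 and 4, Prelp had 3 and 2 reads, at or below the limit of detection. The log2 difference was -1.45 (standard error 0.41), from means of 12.4 ± 4.99 in control and 4.03 ± 2.22 in p16 cells (SD, n = 4 each), and these values rest on 47 reads in control and 20 in p16 samples. It was -1.62 without the library labelled p16 replicate 1.

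Bgn (ENSMUSG00000031375, chromosome X, 73483602 to 73495933, plus strand) encodes biglycan, the closest relative of decorin in structure. Its normalized read count was 24.5, 15.4, 32.6 and 114.6 in controls 1 to 4 and 16, 32.8, 25.7 and 18.1 in p16 replicates 1 to 4. Its groups overlapped, and control replicate 4 stood above all the other samples. The log2 difference of -0.62 (standard error 0.46) was -0.05 without control replicate 4, -0.99 without control replicate 2 and -0.47 without the library labelled p16 replicate 1.

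**Figure D1:**
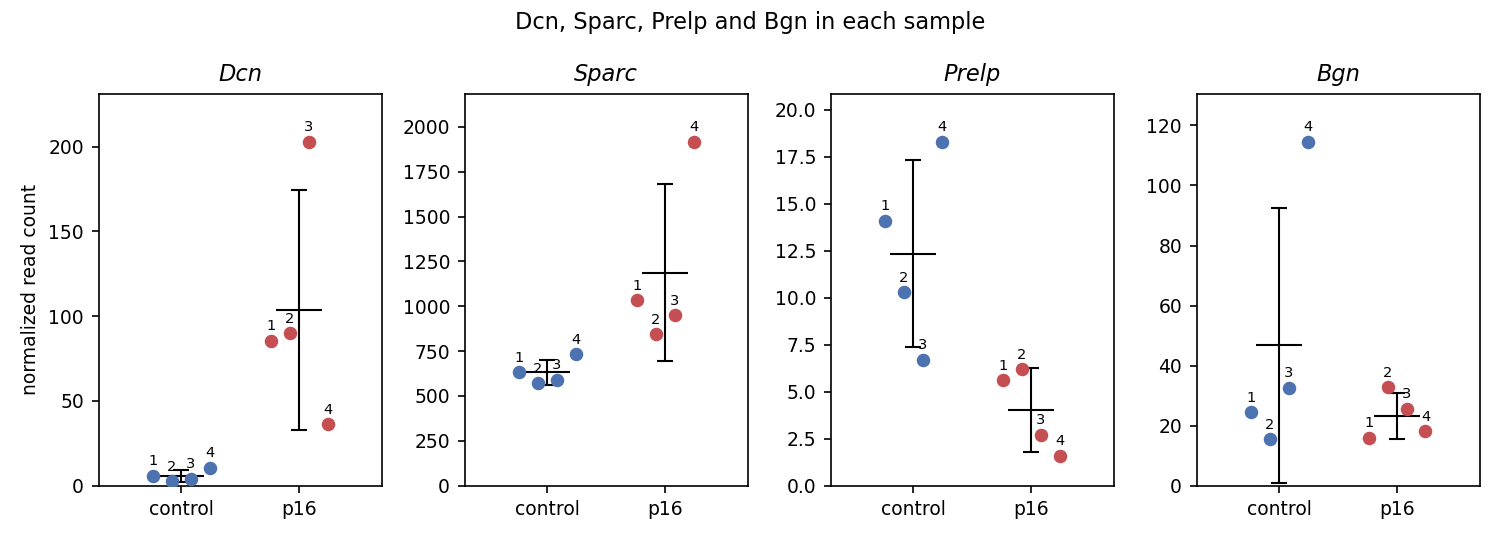
Normalized read counts of Dcn, Sparc, Prelp and Bgn (y axes, starting at 0, with a scale for each gene) in the control (blue) and p16 (red) samples, with the replicate number above each point and the mean ± SD (n = 4) as a line with bars. Dcn and Sparc do not overlap between the groups and are higher in p16 samples, Prelp does not overlap and is lower, and Bgn overlaps, with control replicate 4 at 114.6.

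The remaining SLRPs of the group were at or below the limit of detection in every sample. Asporin, which binds collagen and TGF-β, had 4 reads in control samples and 1 in p16 samples, with a highest normalized read count of 3.9 in control replicate 2. Fibromodulin, a keratan sulfate-bearing regulator of collagen fibrils, had 2 reads in control samples and 0 in p16 samples, and osteoglycin had 1 and 0. Lumican, which like fibromodulin carries keratan sulfate, and osteomodulin, known from bone, had 0 reads in all 8 samples, of 22717783 reads in total. No fold is given for these 5 genes.

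Of the 9 genes, 4 (Dcn, Sparc, Prelp and Bgn) had a mean normalized read count of at least 1 and entered the comparison of all genes with limma and Benjamini-Hochberg adjustment, where genes with an adjusted p under 0.05 were called. Dcn and Sparc were called higher in p16 cells, where 1.24% of the 12782 genes tested were called higher, and 0 of the 4 were called lower, where 2.61% were (3.86% in either direction). At an unadjusted p under 0.05, limma put 2 higher and 1, Prelp, lower, and the count tests of edgeR (3 genes, without Prelp) and DESeq2 both called 2 higher and 0 lower. Sparc was no longer called without control replicate 1, 2 or 3, without the library labelled p16 replicate 1, or with replicate 3 of both groups left out, so that 1 gene, Dcn, was called in each of these. The groups did not overlap for 3 of the 4, which was so for 9.83% of all genes tested. Since Dcn was chosen by this same contrast, nothing is read from these counts.

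Whether the other genes varied with Dcn among samples of the same group was described by the correlation of deviations from the group means of log2(normalized read count + 1) over the 8 samples. Pearson's r with Dcn was 0.631 for Bgn, 0.469 for Prelp and -0.457 for Sparc. For Bgn, the sample with the highest deviation, control replicate 4, was also the control with the most Dcn. These values share libraries and size factors, and are given without a test. The control deviations of Dcn rest on 8, 2, 5 and 7 reads in controls 1 to 4. Counting error therefore weighs on every r with Dcn given here and below. None of the 3 thus had both the direction of Dcn between the groups and a positive correlation with it within them.

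By the same measure, Dcn was compared with 10430 genes whose mean normalized read count was at least 10. The highest values were those of Fbln7 (r = 0.989), Ahcyl1 (r = 0.972), Vps18 (r = 0.958), Dnaja1 (r = 0.955) and Smchd1 (r = 0.950). Fbln7, a secreted matrix protein of the fibulin family, had normalized read counts of 26.7, 20.5, 22.6 and 33.6 in controls 1 to 4 and of 21.6, 21.9, 29.3 and 16.4 in p16 replicates 1 to 4. Its groups overlapped, and none of the 5 genes was called between the groups by limma (adjusted p between 0.414 and 0.782). The log2 fold change was 0.19 for Ahcyl1. It was opposite in sign to Dcn for Fbln7 (-0.21), Vps18 (-0.21), Dnaja1 (-0.25) and Smchd1 (-0.12). Of these 10430, the genes of the lists described below with the highest r, named here after their values were seen, were Lgr5 (0.934, rank 11 of 10430), Timp2 (0.844), Sox9 (0.828), Lhx2 (0.827) and Fbln1 (0.788). Next were Fam20b (0.783), Adamts1 (0.741), Tgfb3 (0.681) and Tgfb2 (0.680). The lowest r of these list genes were -0.906 for Adamts14, -0.902 for Xylt2, -0.786 for Chst14 and -0.710 for Thy1. Below a mean of 10, Vcan had 0.841, from 4 reads in control and 26 in p16 samples, and Fstl1 had 0.818, from 58 and 17.

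SLRP genes lie in clusters in the genome, and Dcn shares its cluster with Lum, Kera and Epyc. These 4 genes span 202.8 kb of chromosome 10 on the plus strand, with 47.0 kb between the end of Dcn and the start of Lum. Lum, Kera (keratocan) and Epyc (epiphycan) had 0 reads in every sample. In the cluster on chromosome 13 (119.7 kb), Ecm2 and Omd had 0 reads, Aspn had 5 reads and Ogn had 1 over all samples. On chromosome 1, Prelp lies between Optc (opticin), which had 0 reads, and Fmod, within 151.1 kb. Thus Dcn and Prelp were the genes of the 3 clusters with more than a few reads.

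**Figure D2:**
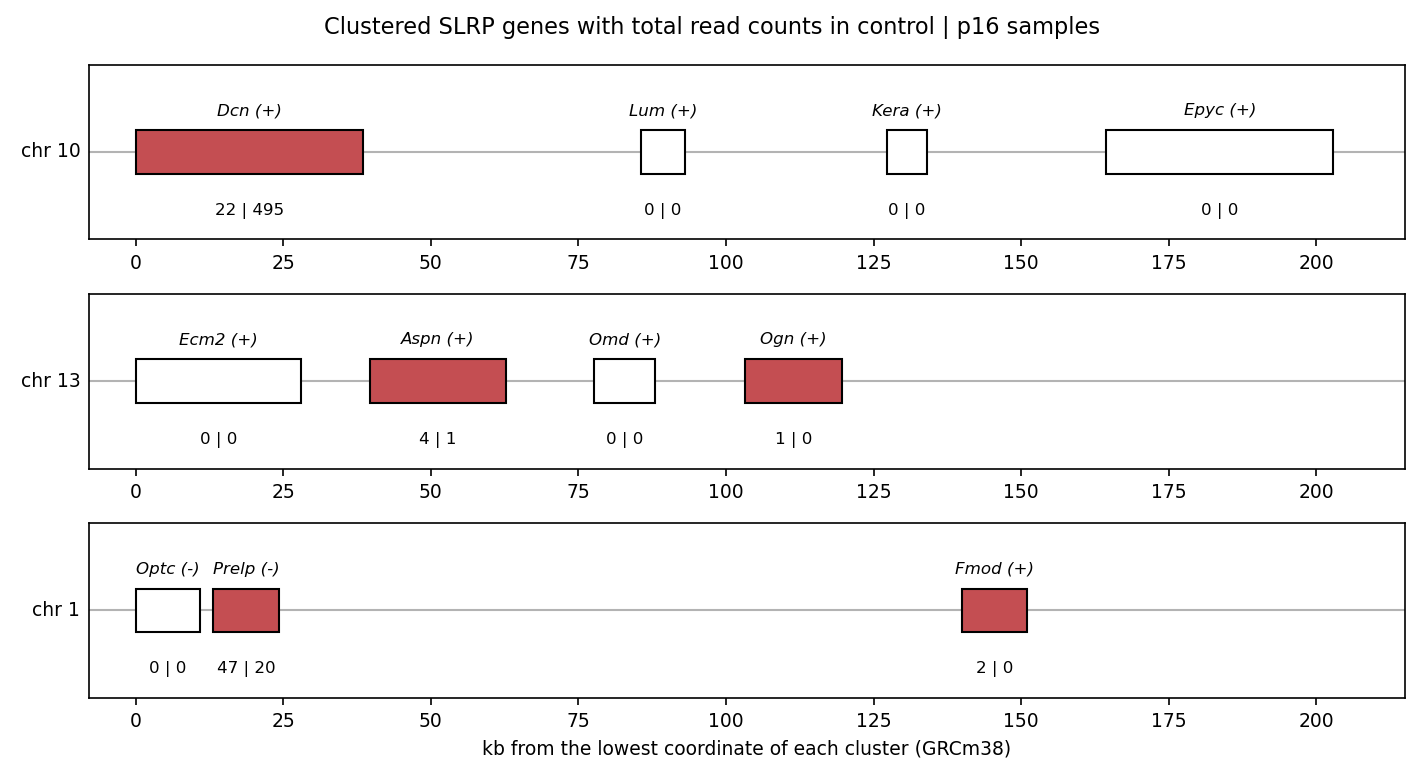
Maps to scale of the SLRP gene clusters on chromosomes 10, 13 and 1 (x axis, kb from the lowest coordinate of each cluster in GRCm38), with genes as boxes, the strand in parentheses and the total read counts over the 4 control and the 4 p16 samples below each box, filled where any read was counted. On chromosome 10, Dcn has 22 and 495 reads and its neighbors have 0.

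A wider set of 10 SLRPs that are not among the 9 genes was examined as well. Kera, Epyc, Optc, Chad, Podnl1 and Ecm2 had 0 reads in all samples, Nyx had 1 read, and Podn had 4 reads in each group. Tsku, which encodes tsukushi, a secreted binder of BMP and Wnt-pathway proteins, had normalized read counts of 7.4, 5.1, 5.0 and 6.1 in controls 1 to 4 and of 4.8, 6.2, 10.6 and 4.9 in p16 replicates 1 to 4. Its groups overlapped, although p16 replicate 3, the sample with the most Dcn, was also highest for Tsku. Within the groups, r of Tsku with Dcn was 0.768, and its log2 fold change between them was 0.10 (standard error 0.34). The Tsku values rest on 24 reads in control and 32 in p16 samples. Chadl had at most 3.2 in any sample, from 4 reads in control and 9 in p16 samples, and its r with Dcn was -0.789. Tsku and Chadl were the 2 genes of this set tested, and limma called 0 of them (0 at an unadjusted p under 0.05, and 0 by DESeq2, while edgeR tested 0 of them).

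The genes around decorin in the matrix were examined with 7 lists, the SLRPs above included, which cover SPARC family proteins, other proteoglycans, enzymes of chondroitin and dermatan sulfate synthesis, binding partners of decorin and biglycan, proteins of the collagen fibril, and proteases with their inhibitors. Of their 121 genes, 82 were tested, and limma called 6 higher and 8 lower in p16 cells, 17.1% of those tested beside 3.86% of all genes. The fold changes had no common direction, with 39 genes above and 43 below 0 and a median log2 fold change of -0.02, against -0.0027 for all genes tested. With replicate 3 of both groups left out, 1 was called higher and 5 lower, and without the library labelled p16 replicate 1 the lower count was 4. The lower count was also 4 without control replicate 1, and it was 5 without control replicate 4 or p16 replicate 3. These lists and the marker lists below were chosen with earlier results of these data known. The 17.1% is therefore not read against the 3.86%.

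**Figure D3:**
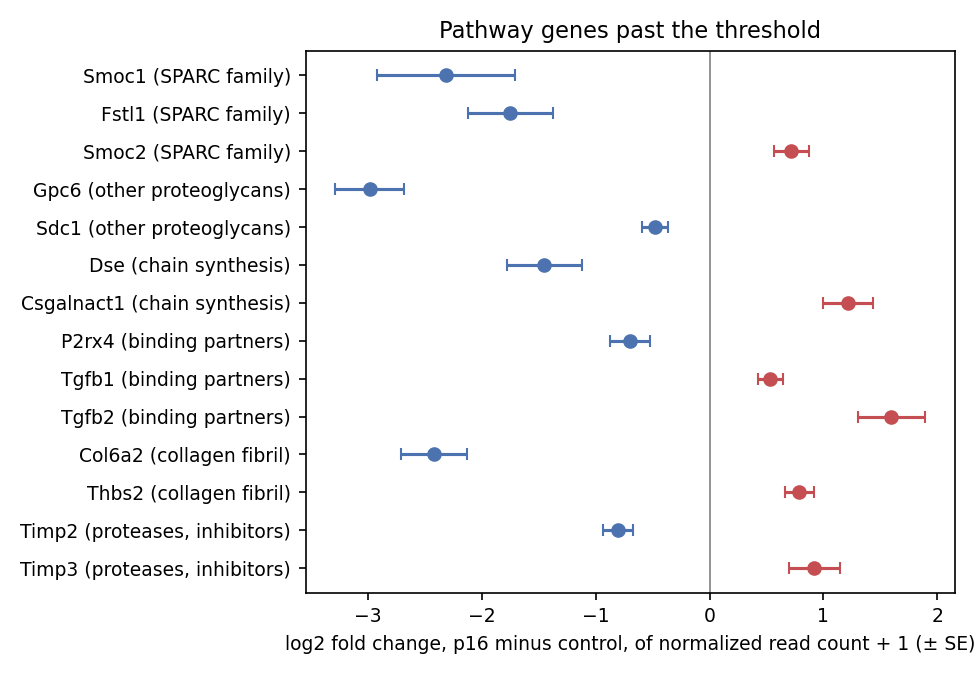
Log2 fold changes of normalized read count + 1 (x axis, p16 minus control, ± standard error, n = 4 per group) of the 14 genes of the matrix lists past the threshold in limma, each with its list (y axis), in red where higher and in blue where lower in p16 cells. Gpc6 is the lowest at -2.99 and Tgfb2 the highest at 1.60.

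Among the other SPARC family genes, 5 of 7 were tested and 1 rose and 2 fell (1.24% and 2.61% of all genes tested did). Smoc2, a secreted calcium-binding relative of Sparc, had normalized read counts of 384.3, 432.5, 378.3 and 444.6 in controls 1 to 4 and of 726.8, 515.3, 584.3 and 943.9 in p16 replicates 1 to 4. All p16 samples were above all controls (log2 fold change 0.72, standard error 0.15, limma adjusted p = 0.0167), and the order of the p16 samples was that of Sparc, as for 792 of the 12782 genes tested (6.20%). Smoc1 had 17.8, 7.7, 18.4 and 1.5 in controls 1 to 4 and between 0.0 and 1.6 in p16 samples. The p16 samples were at the limit of detection, which makes Smoc1 at least 4.60-fold lower against 3 reads in each p16 library (limma adjusted p = 0.0485), but control replicate 4 lay in their range. Fstl1, a follistatin-like secreted glycoprotein, fell from 14.7 ± 6.12 to 3.53 ± 1.41 (SD, n = 4 each), with no overlap (log2 fold change -1.75, standard error 0.37, limma adjusted p = 0.0172). The call of Smoc2 was lost without control replicate 1 (limma adjusted p = 0.0592), control replicate 3 (0.0518), the library labelled p16 replicate 1 (0.0608) or replicate 3 of both groups (0.0648), and that of Fstl1 without control replicate 1 (0.0718) or 4 (0.0553). Of the fits without a single library, Smoc1 was called only in that without control replicate 4, with an adjusted p between 0.0576 and 0.173 in the others. It was also not called without replicate 3 of both groups (0.246), with a pseudocount of 0.1 (0.097) or with total count scaling (0.0552). DESeq2 called both Smoc1 (adjusted p = 0.00419) and Fstl1 (0.0086), while edgeR tested neither.

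Of 22 other proteoglycans and link proteins, 12 were tested and limma called 2 lower and 0 higher (2 higher at an unadjusted p under 0.05, and 0 by edgeR, which tested 11, and by DESeq2). Of all genes tested, 2.61% were called lower and 1.24% higher. Gpc6, a glypican that carries heparan sulfate at the cell surface, had normalized read counts of 49.7, 34.7, 28.4 and 33.6 in controls 1 to 4 and of 4.0, 6.2, 2.7 and 2.5 in p16 replicates 1 to 4. It was lower in 4 of 4 p16 samples (log2 fold change -2.99, standard error 0.30, limma adjusted p = 8.49e-05) and was called in all alternatives run. Sdc1, which encodes syndecan-1, the main syndecan of keratinocytes, was 2996 ± 448 in control and 2139 ± 217 in p16 samples (SD, n = 4 each), without overlap (log2 fold change -0.48, standard error 0.12, limma adjusted p = 0.0322). Its call was lost without control replicate 3 or 4, the library labelled p16 replicate 1, or p16 replicate 2 or 3 (limma adjusted p between 0.076 and 0.113), and without replicate 3 of both groups (0.216). Versican (Vcan), a large chondroitin sulfate proteoglycan, had 0.7, 0.0, 1.7 and 1.5 in controls 1 to 4 and 2.4, 5.5, 12.4 and 1.6 in p16 replicates 1 to 4. It was not called (limma adjusted p = 0.179), but its p16 samples stood in the same order as those of Dcn, as did those of 851 of the 12782 genes tested (6.66%). All orders of samples were compared after the values were seen.

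Of 22 enzymes that build and sulfate chondroitin and dermatan sulfate chains, 21 were tested, 1 rose and 1 fell (1.24% and 2.61% of all genes tested did). Csgalnact1, which starts chondroitin chains, was 23.4 ± 4.15 in control and 56.6 ± 13.9 in p16 samples (SD, n = 4 each) and higher in 4 of 4 (log2 fold change 1.22, standard error 0.22, limma adjusted p = 0.00635). Dse, an epimerase that turns chondroitin into dermatan sulfate, had normalized read counts of 24.5, 20.5, 39.3 and 16.8 in controls 1 to 4 and of 7.2, 12.5, 9.8 and 4.9 in p16 replicates 1 to 4. Its p16 samples were all below the controls (log2 fold change -1.45, standard error 0.33, limma adjusted p = 0.0220), while Dsel, the related epimerase, was 70.8 ± 15.3 in control and 73.5 ± 13.9 in p16 samples (SD, n = 4 each). The call of Csgalnact1 was lost with replicate 3 of both groups left out (limma adjusted p = 0.0527). That of Dse was lost without control replicate 1 (0.0714), control replicate 3 (0.0765), the library labelled p16 replicate 1 (0.0685) or replicate 3 of both groups (limma adjusted p = 0.112).

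Among 16 growth factors and receptors that decorin or biglycan bind, 11 were tested, 2 rose and 1 fell (1.24% and 2.61% of all genes tested did). Tgfb2 had normalized read counts of 36.3, 27.0, 21.7 and 21.4 in controls 1 to 4 and of 76.8, 82.0, 151.6 and 44.4 in p16 replicates 1 to 4. All p16 samples were above all controls (log2 fold change 1.60, standard error 0.30, limma adjusted p = 0.00715), and their order was that of Dcn, with p16 replicate 3 highest and p16 replicate 4 lowest. Tgfb1 was 117 ± 11.3 in control and 169 ± 8.37 in p16 samples (SD, n = 4 each), also without overlap (log2 fold change 0.53, standard error 0.11, limma adjusted p = 0.0156), whereas Tgfb3 overlapped and was not called (limma adjusted p = 0.905). P2rx4, an ATP-gated channel of biglycan signaling, was 50.0 ± 7.44 in control and 30.2 ± 2.36 in p16 samples (SD, n = 4 each) and lower in 4 of 4 (log2 fold change -0.70, standard error 0.18, limma adjusted p = 0.0383). Of the fits without a single library, P2rx4 was called only in that without control replicate 3 (limma adjusted p between 0.0543 and 0.123 in the others). It was not called without replicate 3 of both groups (0.0805), without a filter (0.0541), with a replicate block (0.0548), with total count scaling (0.0509) or in DESeq2 (0.0563), and was called in edgeR (0.0303). Tgfb1 was at 0.0503 without p16 replicate 3, and without replicate 3 of both groups Tgfb1 was at 0.113 and Tgfb2 at 0.0503 (limma adjusted p). The receptors Egfr, Met, Igf1r and Lrp1 were not called, and Kdr and Erbb4 had 0 reads.

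Among 25 collagens and other proteins of the fibril, 18 were tested, 1 rose and 1 fell (1.24% and 2.61% of all genes tested did). Col6a2, a chain of the beaded collagen VI to which decorin and biglycan bind, had normalized read counts of 29.7, 30.8, 15.9 and 27.5 in controls 1 to 4 and of 4.0, 3.9, 4.4 and 3.3 in p16 replicates 1 to 4. It was lower in 4 of 4 (log2 fold change -2.42, standard error 0.29, limma adjusted p = 0.000294), while Col6a1 overlapped (limma adjusted p = 0.919). Thbs2, a matricellular thrombospondin, was 357 ± 36.2 in control and 624 ± 114 in p16 samples (SD, n = 4 each) and higher in 4 of 4 (log2 fold change 0.79, standard error 0.13, limma adjusted p = 0.00291). Its p16 samples, at 642.8, 487.2, 602.0 and 763.0 in replicates 1 to 4, also had the order of Sparc. Both calls held in all alternatives run.

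Of 19 proteases and inhibitors, 13 were tested, and those that changed were both inhibitors of metalloproteases (of all genes tested, 1.24% rose and 2.61% fell). Timp3 was 550 ± 192 in control and 1012 ± 253 in p16 samples (SD, n = 4 each), without overlap (log2 fold change 0.92, standard error 0.22, limma adjusted p = 0.0313). Timp2 was 516 ± 56.6 in control and 298 ± 53.0 in p16 samples (SD, n = 4 each), lower in 4 of 4 (log2 fold change -0.80, standard error 0.13, limma adjusted p = 0.00354), and was called in all alternatives run. Timp3 lost its call without control replicate 2 or 3, the library labelled p16 replicate 1 or p16 replicate 2 (limma adjusted p between 0.0543 and 0.113), without replicate 3 of both groups (0.0887) and in DESeq2 (adjusted p = 0.0786). Bmp1, which cuts procollagen and the propeptide of biglycan, was 73.8 ± 5.17 and 82.9 ± 14.5 (SD, n = 4 each) and was not called (limma adjusted p = 0.704).

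Because dermal fibroblasts make decorin, their markers were examined beside it. Of 17 fibroblast markers, 9 were tested, and limma called 0 higher (2 at an unadjusted p under 0.05, and 0 by edgeR, which tested 3, and by DESeq2) and 1 lower, beside 1.24% and 2.61% of all genes tested. The markers summed to 1034.7, 1058.9, 910.3 and 871.0 in controls 1 to 4 and to 861.9, 1689.7, 1065.8 and 3106.4 in p16 replicates 1 to 4, in normalized read counts. Most of each sum was Thy1, which was between 582.1 and 791.8 in control samples and between 674.8 and 2908.2 in p16 samples, highest in p16 replicate 4, the sample with the least Dcn and the most Sparc of its group. The marker called lower was Fbln1 (log2 fold change -0.98, standard error 0.25, limma adjusted p = 0.0435). Fbln1 lost its call without control replicate 1, 2 or 4, the library labelled p16 replicate 1 or p16 replicate 4 (limma adjusted p between 0.073 and 0.144). It was also not called with a pseudocount of 0.1 (0.0528), without a filter (0.0530), with a replicate block (0.0526), with total count scaling (0.0554) or in edgeR (adjusted p = 0.0505), and was called in DESeq2 (0.0146).

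Among the other fibroblast markers, Pdgfra, which encodes the gated antigen CD140a, had 0.7, 1.3, 0.8 and 0.0 in controls 1 to 4 and 2.4, 0.8, 3.5 and 0.0 in p16 replicates 1 to 4. Mfap5 had 0 reads in every sample, Dpt had at most 1.3 and Col3a1 at most 4.6. Col1a1 had 2.2, 2.6, 0.8 and 1.5 in controls 1 to 4 and 6.4, 2.3, 11.5 and 2.5 in p16 replicates 1 to 4. Pdgfra and Col1a1 were thus both highest in p16 replicate 3, where Dcn was highest, while Col1a2 was lower in every p16 sample than in any control, at 2.68 ± 0.759 against 10.4 ± 5.62 (SD, n = 4 each), and was not called (limma adjusted p = 0.0571). Without Thy1, Ly6c1 and Fbln1, which were left out after the values were seen, the fibroblast markers summed to 32.5, 25.8, 25.8 and 36.8 in controls 1 to 4 and to 16.8, 18.0, 30.1 and 14.8 in p16 replicates 1 to 4. The part of fibroblast RNA in the Dcn values was not tested beyond these values.

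Of 5 dermal papilla markers, 2 were tested, and limma called Crabp1 lower (14.4 ± 2.44 in control and 2.45 ± 1.12 in p16 samples, SD, n = 4 each; log2 fold change -2.22, standard error 0.36, adjusted p = 0.00274), where 2.61% of all genes tested were called lower. Their sum was 61.6, 61.6, 33.4 and 55.1 in controls 1 to 4 and 33.6, 35.9, 25.8 and 34.5 in p16 replicates 1 to 4, Rspo3 had the highest values, and Corin had 0 reads. Limma called 0 markers of pericytes and smooth muscle (2 of 7 tested), endothelium (2 of 7), immune cells (7 of 9 entries, of which 2 are Itgam) and Schwann cells (3 of 5). At an unadjusted p under 0.05 it put 1 immune marker higher and 2 Schwann cell markers lower, and of all these markers DESeq2 called 1 Schwann cell marker lower and edgeR, which tested 2, 1, 2 and 1 of the lists in turn, 0. Pecam1 was at most 6.4, Ptprc at most 1.6, and Kdr, Cdh5, Emcn, Cldn5, Lyz2 and Des had 0 reads. The most abundant genes of these lists were Notch3, Flt1, Cd74 and Sox10, and no adipocyte marker, of which Cidec was the most abundant, had a mean high enough to be tested.

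Of 5 melanocyte markers, 4 were tested and 2 fell, where 2.61% of all genes tested were called lower. Dct, the most abundant, had 342.0, 75.7, 32.6 and 128.3 in controls 1 to 4 and 14.4, 47.6, 12.4 and 9.0 in p16 replicates 1 to 4 (log2 fold change -2.54, standard error 0.58, limma adjusted p = 0.0236). The groups overlapped for Dct and not for Tyrp1 (log2 fold change -2.54, standard error 0.59, limma adjusted p = 0.0257). Melanocyte markers summed to 411.0, 106.6, 63.4 and 192.5 in controls 1 to 4 and to 32.8, 80.4, 16.9 and 13.9 in p16 replicates 1 to 4. Dct lost its call without control replicate 1 or 4, the library labelled p16 replicate 1 or p16 replicate 3 (limma adjusted p between 0.0654 and 0.0745), and Tyrp1 without control replicate 1, 2 or 4, the library labelled p16 replicate 1 or p16 replicate 3 (between 0.0569 and 0.107). Tyrp1 was also not called without replicate 3 of both groups (limma adjusted p = 0.0844), with a pseudocount of 0.1 (0.0801) or in edgeR (0.0501), and was called in DESeq2 (0.0167).

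The keratinocyte markers had high values in every sample, and limma called 0 of 8 (3 higher at an unadjusted p under 0.05, 0 by edgeR and 1 higher by DESeq2). Recovered reads of Krt5 lay between 11761 and 12279 in every library although the libraries differed 1.94-fold in depth, so normalized values of the most abundant genes, Krt15 among them, may be compressed. Krt5 and Krt15 were highest in the libraries with the fewest reads, control replicates 2 and 4. Of 6 hair follicle bulge markers, 5 fell (2.61% of all genes tested did): Cd34, Lhx2, Sox9, Nfatc1 and Krt15. The sixth, Lgr5, was not called (limma adjusted p = 0.241). Their list summed to 11551.8, 15555.4, 11387.9 and 15395.7 in controls 1 to 4 and to 8512.9, 8521.3, 8367.5 and 8821.4 in p16 replicates 1 to 4, most of it Krt15. Without Krt15, left out after the values were seen, the sums were 3109.0, 2419.0, 2793.7 and 3074.0 in controls 1 to 4 and 1448.8, 1764.6, 1760.1 and 987.4 in p16 replicates 1 to 4. Cd34 was 169 ± 51.4 in control and 11.8 ± 4.08 in p16 samples (SD, n = 4 each; log2 fold change -3.74, standard error 0.25, limma adjusted p = 3.27e-06). Lhx2 had 658.7, 391.4, 487.8 and 540.8 in controls 1 to 4 and 103.1, 150.7, 159.6 and 66.6 in p16 replicates 1 to 4 (log2 fold change -2.16, standard error 0.23, limma adjusted p = 0.000111). The p16 samples of Lhx2 stood in the same order as those of Dcn, although the groups differed in the opposite direction. Sox9 lost its call without control replicate 1, 3 or 4 or the library labelled p16 replicate 1 (limma adjusted p between 0.0775 and 0.0896), and Krt15 without control replicate 2 or 4, the library labelled p16 replicate 1 or p16 replicate 2 or 3 (between 0.0972 and 0.128). Without replicate 3 of both groups, Sox9 (0.0746), Krt15 (0.093) and Nfatc1 (0.061) were not called, nor was Sox9 with total count scaling (0.051) or Krt15 with a pseudocount of 0.1 (0.0516) or without a filter (0.0786). DESeq2 and edgeR called all 5. The part of bulge, dermal papilla and melanocyte cells in the values of the matrix genes was not tested.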

How the data were processed

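mRNA-seq of GFP+ keratinocytes was analysed in 8 of the 21 labelled samples, and the other 13 were not analysed here. The authors used Cutadapt for trimming, TopHat2 for alignment (GRCm38) and, per the labels, HTSeq for counting, and deposited signal values, which are counts scaled by DESeq2 size factors to 1 decimal. The annotation version and the use of molecular identifiers are not given in the sources used here. The authors' group means, test statistics and p-values were not used. Whole read counts were recovered for 100% of the values.

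Groups were compared with limma 3.58.1 in R 4.3.3 (eBayes with trend) on log2(value + 1) over 12782 genes whose mean was 1 or more, and a gene was called at a Benjamini-Hochberg adjusted p under 0.05. The steps were tested on simulated data. In these, all genes had the same spread beyond counting error, and changes were set only in genes well above the limit of detection. Changes in genes with as few reads as Prelp were not covered. No within-group pair of libraries was within sampling noise (chi-square per degree of freedom 3.05 to 8.96 over 12 pairs). It was 6.75, 8.96 and 8.18 for p16 replicate 4 with p16 replicates 1 to 3, and 3.05 to 3.31 for the other p16 pairs. The alternatives were a pseudocount of 0.1, no filter or a minimum mean of 10, a replicate block, each sample or replicate 3 of both groups left out, total count scaling, unadjusted p-values, and, on recovered counts, edgeR 4.0.16 (160 genes higher and 299 lower) and DESeq2 1.42.0 (190 and 356). Coordinates are those of GENCODE M21.

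The members and lists were chosen with earlier results of these data known. The text names all 9 members and the other SLRPs, every called gene of each other list, the gate genes Pdgfra, Ptprc and Pecam1, and the most abundant gene of each marker list. It also names the 5 genes with the highest r with Dcn among those with a mean of at least 10. Other genes were named after their values were seen. Not every gene planned for the lists is reported.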

Additional observations from a re-analysis of the deposited data

Results flagged for a closer look

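In 122 groups of 4 samples, the highest or lowest sample stood far from the other samples of its group 7 times. The groups were those of 61 genes (every tested gene whose values the text gives). Chance gives about 5% of groups, but Mmp9 is among these genes and was named after its values were seen. The sample values of Nfatc1 and Col6a1, too, are given only in this section. The count is therefore not read against that share. Sdc1 was 2464.2 in p16 replicate 4, while the other p16 samples lay between 2028.7 and 2034.9. Dct was 47.6 in p16 replicate 2, with the others between 9.0 and 14.4, and Nfatc1 was 215.9 in the library labelled p16 replicate 1, with the others between 193.2 and 196.8. Col6a1 was 193.2 in p16 replicate 4, with the others between 63.2 and 80.8, and Col3a1 was 4.6 in control replicate 4, with the others between 0.7 and 1.3. The Col3a1 values are 3 reads and 1 read in each other control, at or below the limit of detection. Mmp9, a protease named after its values were seen, was 16.7 in control replicate 3 and 12.4 in p16 replicate 3, with the others between 1.3 and 3.0 and between 1.6 and 2.4. These are the samples whose labels word the library protocol differently. All are normalized read counts.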

How the results depend on the processing

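Over all genes, 159 were called higher and 334 lower. With replicate 3 of both groups left out the counts were 66 and 157, at an unadjusted p under 0.05 they were 897 and 1141, and leaving out single samples gave 69 to 196 higher and 177 to 343 lower. Of the members, 2 were called higher and 0 lower, beside 1.24% and 2.61% of all genes tested. Replicate 3 of both groups left out gave 1 higher, single samples left out gave 1 to 2 higher, and an unadjusted p gave 1 lower. Dcn was chosen by this same contrast, so nothing is read from the member counts. Of the matrix lists, 6 genes were called higher and 8 lower. With replicate 3 of both groups left out these were 1 and 5, at an unadjusted p 16 and 13, and with single samples left out 4 to 8 and 4 to 7. Why these counts moved was not tested. The matrix lists were chosen with earlier results of these data known, so their counts are given as a description. Of the 14 genes of the matrix lists called, 5 were also called with replicate 3 of both groups left out, 12 in edgeR (which did not test the other 2), 12 in DESeq2 and 12 with total count scaling, which moved the median log2 fold change of all genes by 0.03.

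Deviations of same-numbered samples of the groups had r of 0.004 to 0.083 over all genes, beside -0.100 to 0.058 for the other pairs of samples, and whether the numbers pair the samples is not settled by this. With a replicate block, 216 genes were higher and 392 lower, 10 genes of the matrix lists were higher and 8 lower, and 13 of the 14 called genes were also called.

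No log2 difference of a member changed sign in any alternative. That of Dcn lay between 3.33 and 4.23, of Sparc between 0.58 and 0.97 and of Prelp between -1.69 and -1.17, and that of Bgn was -0.05 without control replicate 4 and -0.99 without control replicate 2. Depth limits the low members, 5 of which had 3 reads or fewer in every sample.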

Other observations

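The highest recovered counts did not follow depth. Krt5 had the highest count of every library, between 11761 and 12279, although the deepest library had 1.94 times the reads of the shallowest. Krt14 lay between 10186 and 12146. The normalized read counts of Krt5 were highest in the shallowest libraries, at 17968.5 in control replicate 4 and 15451.6 in control replicate 2, against 9045.9 in control replicate 1. Counts of Sparc were between 445 and 2332, below this range.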
